A study of Mus musculus with 20 samples.

Results

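The Acot1-6 cluster is a run of 6 acyl-CoA thioesterase genes on mouse chromosome 12, lying between 83987861 and 84109783 (mm10) in the order Acot2, Acot1, Acot4, Acot3, Acot5 and Acot6. Members were 6 of the 21900 protein-coding genes taken from the RefSeq table, each taken with the consensus intervals whose midpoint lay in its gene body or within 10 kb of it. The gene bodies (with NCBI gene identifiers) are chr12:83987861-83993877 for Acot2 (171210), chr12:84009502-84017670 for Acot1 (26897), chr12:84037254-84044723 for Acot4 (171282), chr12:84052144-84060400 for Acot3 (171281), chr12:84069077-84076024 for Acot5 (217698) and chr12:84100654-84109783 for Acot6 (217700). A consensus interval is a peak region merged over the libraries of a histone mark, as the authors deposited it. The rule gave 20 of 65776 H3K27ac intervals, 45 of 103014 H3K4me1 intervals and 22 of 46568 H3K9ac intervals, and used no measured level. The study profiled these marks by chromatin immunoprecipitation and sequencing (ChIP-seq) in livers of 9-week-old male C57BL/6 mice fasted for 24 hours. Livers came from 4 genotypes, namely wild type (WT), a liver knockout of Cpt2 (Cpt2 L-/-, here Cpt2 KO), a Ppara knockout (Ppara -/-, here Ppara KO) and the double knockout (Cpt2 L-/- with Ppara -/-, here DKO). H3K27ac and H3K4me1 were each measured in 2 livers per genotype, and H3K9ac in 1 WT and 1 Cpt2 KO liver. The driver of the Cpt2 deletion and the litters of the mice are not given in the sources used here, so p-values measure the spread between these livers only.

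Acyl-CoA thioesterases split fatty acyl-CoA into a free fatty acid and coenzyme A. Within the cluster, Acot1 is the cytosolic and Acot2 the mitochondrial long-chain enzyme, Acot3, Acot4 and Acot5 are peroxisomal, with Acot4 acting on short dicarboxylic acyl-CoAs such as succinyl-CoA, and Acot6 is a peroxisomal enzyme for branched-chain acyl-CoAs. Ppara is a fatty acid-binding nuclear receptor that switches on fatty acid oxidation genes in the fasted liver, several Acot genes among them, and Cpt2 is the mitochondrial carnitine palmitoyltransferase through which long-chain acyl-CoA enters oxidation. H3K27ac and H3K9ac mark active promoters and enhancers, and H3K4me1 marks enhancers, whether active or not.

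The values below are fold enrichments, the ratio of ChIP signal over background at a peak's summit, as the authors deposited them. An interval's fold in a library is that of its highest overlapping peak, and an interval with no overlapping peak is a "no call", which is not a level of 0. Libraries held from 44454 to 48929 H3K27ac peaks and from 61189 to 72151 H3K4me1 peaks, while their depth in reads is unknown. At the targeted genes, 1 of 5 H3K27ac intervals near Cpt2 was called in all 4 Cpt2-intact livers and in none of the 4 Cpt2-null ones, and 1 of 26 H3K27ac and 2 of 40 H3K4me1 intervals near Ppara were called in all 4 Ppara-intact livers and in none of the 4 Ppara-null ones. Another H3K27ac interval near Ppara had the opposite pattern. Whether those intervals lie in the deleted sequence is not given in the sources used here. All 8 hepatocyte markers examined carried H3K27ac in all 8 libraries, and the muscle and heart markers Myh6, Ckm and Actn2 carried none. The numbers in the peak names were the same for both marks in 8 of 8 livers, and they come from separate runs of numbers for the Ppara-intact and the Ppara-null mice. That difference and the Ppara genotype cannot be told apart.

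The promoters of the 4 genes whose starts carried H3K27ac are shown because the results turn on them. The sequences are the 250 bases before an annotated transcription start (RefSeq, build GRCm38.p6, which is mm10), all on the + strand, and lie at chr12:83987611-83987860 for Acot2, chr12:84009252-84009501 for Acot1, chr12:84038129-84038378 for Acot4 and chr12:84051894-84052143 for Acot3. The Acot4 start used here, 84038379, lies inside the annotated Acot4 gene body. Capitals mark matches, on either strand, to the nuclear receptor element AGGTCA or to its direct repeat, AGGTCA, any 1 base and AGGTCA again, in which 3 of the 12 set letters were allowed to differ. Ppara bound to its partner Rxr is known to favour such repeats.
Acot2: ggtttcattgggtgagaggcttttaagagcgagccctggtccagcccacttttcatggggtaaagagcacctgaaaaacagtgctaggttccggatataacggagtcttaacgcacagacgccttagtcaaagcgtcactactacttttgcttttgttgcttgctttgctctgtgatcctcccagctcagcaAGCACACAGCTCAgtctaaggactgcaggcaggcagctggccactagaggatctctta
Acot1: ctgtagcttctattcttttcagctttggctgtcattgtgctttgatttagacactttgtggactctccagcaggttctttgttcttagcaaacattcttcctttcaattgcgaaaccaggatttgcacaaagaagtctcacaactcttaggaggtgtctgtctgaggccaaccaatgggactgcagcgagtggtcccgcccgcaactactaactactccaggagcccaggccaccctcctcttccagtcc
Acot4: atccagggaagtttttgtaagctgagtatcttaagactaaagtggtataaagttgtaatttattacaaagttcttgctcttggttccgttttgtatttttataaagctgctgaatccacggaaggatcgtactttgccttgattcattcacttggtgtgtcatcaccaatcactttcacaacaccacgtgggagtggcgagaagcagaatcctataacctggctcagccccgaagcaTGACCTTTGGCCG
Acot3: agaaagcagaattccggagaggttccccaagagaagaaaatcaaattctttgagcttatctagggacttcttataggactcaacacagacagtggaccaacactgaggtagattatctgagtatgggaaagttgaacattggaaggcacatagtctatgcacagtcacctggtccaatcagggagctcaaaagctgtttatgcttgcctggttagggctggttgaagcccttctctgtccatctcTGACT
Counting the transcription start as 0, the Acot4 sequence held TGACCTTTGGCCG on the minus strand at positions -13 to -1, which differs from the repeat at 2 letters and contains TGACCT, the reverse complement of AGGTCA, at -13 to -8. In Acot2, AGCACACAGCTCA at -58 to -46 differed at 3 letters. Acot1 held no match, and the capitals at the end of Acot3 are the first bases of TGACTTCTGCCGT (positions -5 to 7), which differs at 3 letters. Past the starts, in the rest of the 300-base windows, Acot3 held TGACCT at 18 to 23 and Acot2 held AGGGCTGAAGTCA, with 3 letters different, at 18 to 30. The Acot5 window, which carried no H3K27ac peak in any library, held TGACCT at -224 to -219, as part of a repeat with 3 letters different, and AGGTCA at -1 to 4. The element was thus not particular to Acot4. Of 27025 promoter windows of 300 bases, 16.0% held AGGTCA, 24.4% the repeat with at most 3 letters different and 3.81% with at most 2, the last limit being set after the Acot4 match was seen. A match is a stretch of letters and not a measured binding site. The promoters were not copies of each other, as the longest run of bases shared by any pair of the 5 promoter windows on record was between 7 and 10 bases.

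H3K27ac in the cluster was widest in the Cpt2 KO livers and narrowest in the Ppara-null livers, that is Ppara KO and DKO. Peaks covered 9.2 and 17.0 kb of the cluster and its 10 kb flanks in the WT livers. They covered 23.8 and 29.4 kb in the Cpt2 KO livers, but 2.3 and 4.1 kb in the Ppara KO livers and 3.2 and 4.1 kb in the DKO livers. No Ppara-null liver reached the lower WT liver, and both Cpt2 KO livers lay above both WT livers. Over the genome the H3K27ac peaks covered between 42.0 and 47.8 Mb in every library, with the Cpt2 KO livers (42.1 and 44.6 Mb) below the WT livers (47.8 and 47.1 Mb). Of the 20 intervals, 5 and 9 were called in the WT livers, 13 and 18 in the Cpt2 KO livers, 3 in each Ppara KO liver and 4 in each DKO liver. The 2 WT livers differed from each other, with replicate 2 carrying more calls around Acot4 and Acot3.

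**Figure D1:**
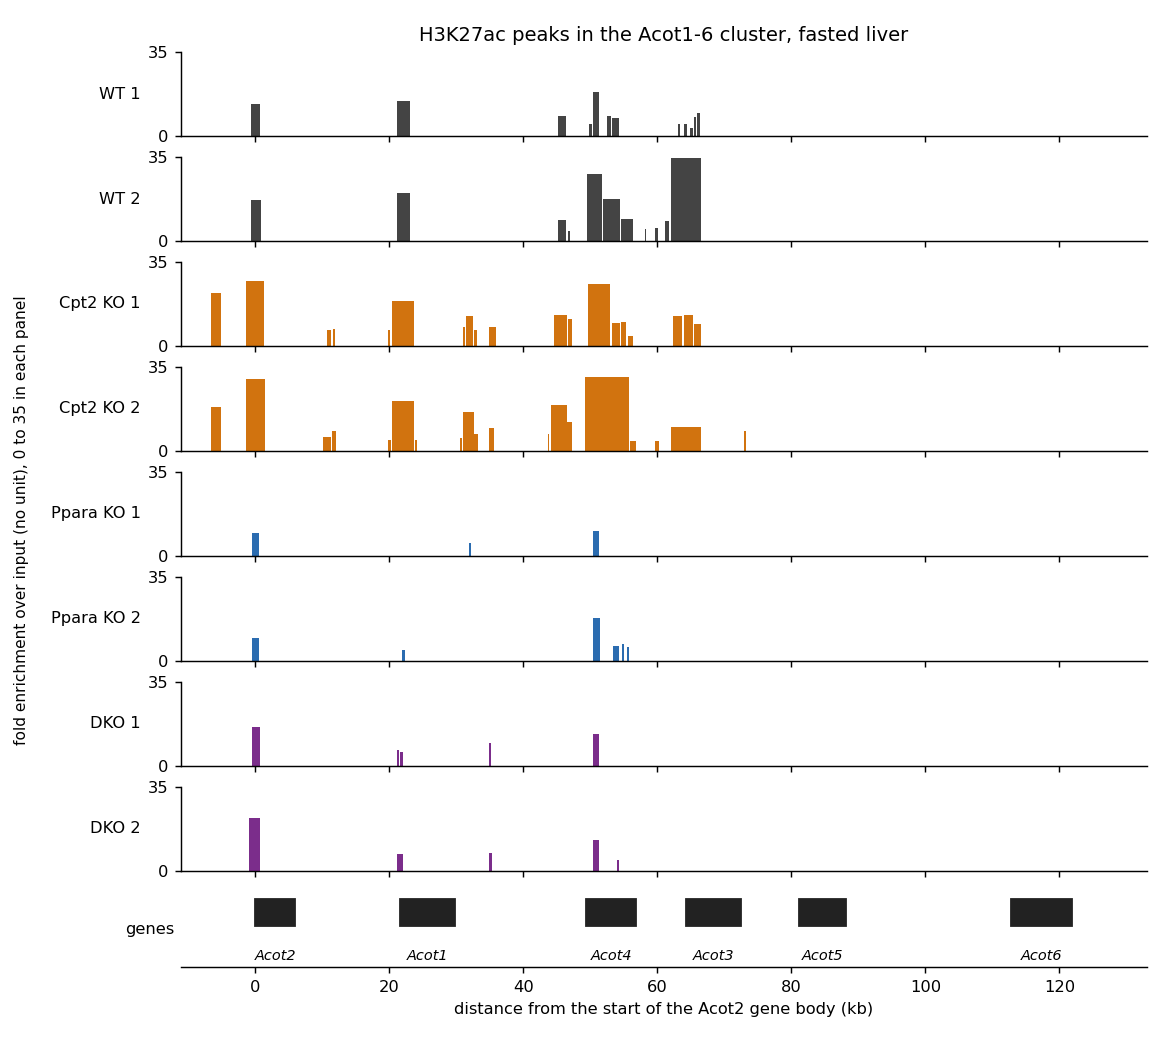
H3K27ac peaks of the 8 libraries across the cluster. The x axis is the distance in kb from the start of the Acot2 gene body and the y axis is fold enrichment (no unit); bar width is peak length and black boxes are gene bodies. The Cpt2 KO livers carry calls before Acot2 and past Acot1 that the WT livers lack. The 4 Ppara-null livers keep calls mainly at the starts of Acot2 and Acot4, with weak calls around the Acot1 start in 3 of them.

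Only 2 of the 20 H3K27ac intervals were called in all 8 libraries, against 27.8% of all H3K27ac intervals. They lay over the start of Acot2 and over Acot4. These 2 were tested within the fit of all 18281 intervals of that kind.

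At Acot2, the mitochondrial enzyme, both deletions went with a change in H3K27ac, in opposite directions. The interval chr12:83986469-83989346 spans the Acot2 start and reached 13.5 and 17.2 in the WT livers. The Cpt2 KO livers gave 27.1 and 29.8, the Ppara KO livers 9.50 and 9.38 and the DKO livers 16.25 and 22.0. The Cpt2 KO livers were the highest and the Ppara KO livers the lowest, while the DKO and WT livers overlapped. On the log2 scale, after centring each library on its median, Ppara-null livers were lower than Ppara-intact livers by a difference of -0.67 (SE 0.15, limma adjusted p = 0.0176). Cpt2-null livers were higher than Cpt2-intact livers by 0.69 (SE 0.15, adjusted p = 0.0150). DKO differed from WT by 0.02 (SE 0.21, adjusted p = 0.967). The interaction (how far the Cpt2 difference changed once Ppara was lost) was 0.02 (SE 0.30, adjusted p = 0.984), an estimate wide enough to hide a sizeable difference. Summits stood between 43 and 192 bases past the Acot2 transcription start in all 8 libraries. The Ppara call at Acot2 was lost without Cpt2 KO replicate 2 (adjusted p = 0.104), Ppara KO replicate 2 (0.0576) or DKO replicate 1 (0.0632), and with peak width as a covariate (0.0506). The Cpt2 call was lost without Cpt2 KO replicate 2 (0.0599) or DKO replicate 2 (0.0535).

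Several properties of the livers and libraries moved with the Cpt2 genotype beside that Acot2 difference. In the sums that follow a marker with no call adds 0, so they depend on how many markers were called. The folds summed are not centred on library medians. Summed H3K27ac folds near 4 Kupffer cell markers (Adgre1, Clec4f, Timd4, Cd5l) were 6.0 to 7.0 in WT and 9.3 to 15.1 in Ppara KO, against 16.8 to 31.2 in Cpt2 KO and 34.6 to 47.3 in DKO, with Adgre1 and Cd5l at no call in every Cpt2-intact liver and in Cpt2 KO replicate 1. Sums near 4 sinusoidal endothelial markers were 55.6 to 64.9 in Cpt2-intact and 80.4 to 90.9 in Cpt2-null livers. Those near 4 stellate cell markers were 8.1 to 21.1 against 26.6 to 37.2, and those near 3 lymphocyte markers 10.2 to 19.4 against 19.6 to 24.3. Taken singly, with a no call as 0, Clec4f, Timd4, Stab2, Pecam1, Dcn, Reln and Ptprc were higher in every Cpt2-null than in every Cpt2-intact liver. For Timd4 the gap was narrow, from 6.28 in Ppara KO replicate 2 to 6.42 in DKO replicate 1. Lyve1, Kdr, Lrat, Des and Cd79a overlapped between Cpt2-intact and Cpt2-null livers, so the sums do not speak for each marker. Called in all 8 libraries were 1 of 4 Kupffer, 4 of 4 endothelial, 1 of 4 stellate and 1 of 3 lymphocyte markers. The lymphocyte marker Cd3e and the cholangiocyte markers Krt19, Epcam and Krt7 were at no call throughout. The fourth cholangiocyte marker, Sox9, was at 12.5 to 19.7 in WT, with no call in both Cpt2 KO livers. It was at 5.8 to 7.2 in Ppara KO and 6.7 to 9.6 in DKO, which overlapped. Sox9 was thus lower with Cpt2 loss only where Ppara was intact. Sums near the 8 hepatocyte markers were 160.0 to 163.2 in WT and 166.5 to 196.6 in Ppara KO. They were 186.6 to 194.8 in Cpt2 KO and 211.0 to 239.4 in DKO. Singly, Apoa2 and Cps1 were higher in both Cpt2 KO than in both WT livers, while Apoa1 and Serpina1a were lower. Alb, Ttr, Tat and Hnf4a overlapped between WT and Cpt2 KO. Serpina1a fell from 22.2 and 35.6 in WT to 15.2 and 18.4 in Cpt2 KO and 11.5 and 14.0 in DKO. In bulk liver, more cells of a type and more of the mark per cell cannot be told apart. The narrowest peak of a library was 198 to 210 bases in the Cpt2-intact and 217 to 223 bases in the Cpt2-null H3K27ac lists. With that width as a covariate in the limma fit, the Acot2 Cpt2 difference was 0.79 at an adjusted p of 0.70. The widths split completely by Cpt2 genotype. A fit with this covariate therefore cannot tell width from genotype when Cpt2-null and Cpt2-intact livers are compared, here or at Acot4. The part of these properties in the Cpt2 results was not tested further.

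Across the 2 tested intervals, 2 were lower in Ppara-null livers (4.15% of all tested intervals were) and 1 was higher in Cpt2-null livers (4.90% were). Over all intervals Cpt2-null livers had 896 higher and 1349 lower, but 3504 higher and 432 lower without centring, where the median of all intervals moved by 0.25. None of the 2 passed for Cpt2 KO against WT (1 at an unadjusted p under 0.05, 13.5% of all intervals called), Ppara KO against WT (2 unadjusted, 6.42% of all), DKO against Ppara KO (1 unadjusted, 0.00547% of all) or the interaction (0 unadjusted, 0.00547% of all). These percentages are at the adjusted threshold, and the share of all intervals at an unadjusted p under 0.05 is not given. The unadjusted counts therefore have no background to be set against. Medians over the 2 were -0.81 for the Ppara difference and 0.27 for the Cpt2 difference, beside -0.014 in each case over all 18281.

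At Acot4, the peroxisomal enzyme for dicarboxylic acyl-CoAs, H3K27ac was lower in the Ppara-null livers and showed no detectable Cpt2 difference. The interval chr12:84037083-84044718 covers nearly the whole gene, and WT livers reached 18.4 and 27.7 there. Cpt2 KO livers gave 25.9 and 30.6, Ppara KO livers 10.4 and 17.7 and DKO livers 13.1 and 12.8. Every Ppara-null liver lay below every Ppara-intact liver, although Ppara KO replicate 2 came close to WT replicate 1. The Ppara-null difference was -0.96 on the log2 scale (SE 0.18, limma adjusted p = 0.00674). The Cpt2-null difference was -0.14 (SE 0.18, adjusted p = 0.630), and it was 0.13 without centring the libraries. Pairwise, DKO was lower than WT by a difference of -1.10 (SE 0.25, adjusted p = 0.0101) and lower than Cpt2 KO by -1.19 (SE 0.25, adjusted p = 0.0259), where 11.5% and 1.64% of all tested intervals were lower. Ppara KO against WT gave -0.72 (SE 0.25, adjusted p = 0.0942), and the interaction was -0.47 (SE 0.35, adjusted p = 0.557). Taking the mean of the overlapping peaks in place of the highest gave -0.49 for the Ppara-null difference (adjusted p = 0.273), and leaving out any 1 library kept that call. The DKO against WT call was lost without WT replicate 2 (adjusted p = 0.0794) or DKO replicate 2 (0.0665), with the mean of peaks (0.233), without centring (0.0509) and with peak width as a covariate (0.71). The DKO against Cpt2 KO call was lost with the mean of peaks (0.607) and without either Cpt2 KO liver (0.0718 and 0.221) or either DKO liver (0.0627 and 0.182).

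The highest Acot4 summit stood at the same place in every library, from 150 to 164 bases past the start whose promoter is printed above. It is the promoter with the match at -13 to -1. What differed beside the height was the extent: peaks covered 3203 and 6596 bases of the Acot4 gene body in WT and 5926 and 7284 bases in Cpt2 KO, against 839 and 2535 bases in Ppara KO and 942 and 1102 bases in DKO.

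**Figure D2:**
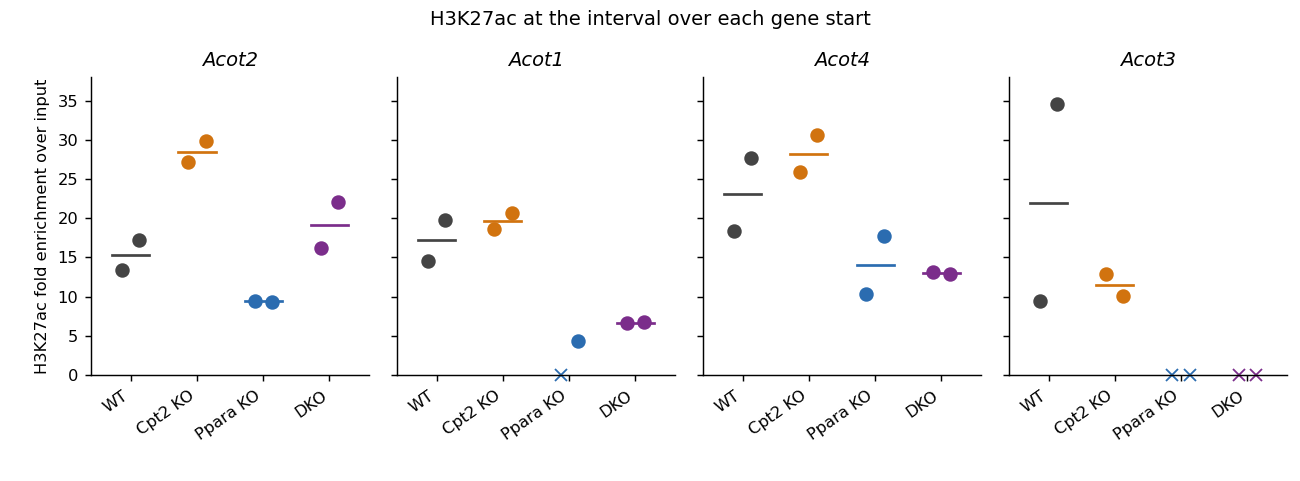
H3K27ac fold enrichment (y axis, no unit) at the interval over the start of Acot2, Acot1, Acot4 and Acot3, by genotype (x axis). Each point is a liver, a bar is the mean of both livers of a genotype where both were called, and a cross on the axis is a library with no call, not a fold of 0. At Acot4 the 4 Ppara-null points, from 10.4 to 17.7, sit below the 4 Ppara-intact points, from 18.4 to 30.6.

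At Acot1, the cytosolic enzyme, the start interval was weakly called or not called in the Ppara-null livers. The interval chr12:84008230-84011627 over the Acot1 start gave 14.5 and 19.8 for the WT livers, against 18.6 and 20.7 for the Cpt2 KO livers. It was not called in Ppara KO replicate 1, had a fold of 4.33 in Ppara KO replicate 2, and 6.65 and 6.74 in the DKO livers. All called Ppara-null values were therefore under every Ppara-intact value, and WT and Cpt2 KO overlapped. With the uncalled library set to its own lowest called fold, the Ppara-null difference was -1.98 (SE 0.19, limma adjusted p = 0.00173), past the threshold without any 1 library (14.4% of all intervals were lower in that fit), and the Cpt2-null difference 0.35 (SE 0.19, adjusted p = 0.201). A filled value has no spread of its own, so p-values of that fit are too small.

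The position of the highest Acot1 summit also differed. It lay between 346 and 373 bases past the transcription start in the 4 Ppara-intact livers and at 377 in Ppara KO replicate 2, but 315 and 309 bases before it in the DKO livers. DKO replicate 1 had another peak in the interval, with a fold of 5.80 against 6.65, that covered the place of the other livers' summits. The single DKO replicate 2 peak covered both places, so the DKO position is a choice between weak signals. The Acot1 window of 250 bases before and 50 after the start held no H3K27ac peak in either Ppara KO liver. H3K4me1 over the same start, at chr12:84009005-84010496, had folds between 6.20 and 7.0 in all 8 libraries, with a Ppara-null difference of -0.01 (SE 0.19, adjusted p = 0.985). All genotypes overlapped in H3K4me1 there.

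Acot3, a peroxisomal long-chain enzyme, was split completely by the Ppara genotype in H3K27ac calls. The interval chr12:84049892-84054445 spans its start and was called at 9.50 and 34.5 in the WT livers and at 12.9 and 10.1 in the Cpt2 KO livers, but in none of the 4 Ppara-null livers. Its summits stood between 797 and 1817 bases past the start. The WT livers lay on either side of the Cpt2 KO livers, so no order of these genotypes can be read. A like split was found before Acot4, at chr12:84032003-84034380, whose midpoint is 4062 bases from that gene, where the WT livers gave 8.33 and 8.67, the Cpt2 KO livers 12.75 and 19.1 and no call was made in the Ppara-null livers. These 2 of 20 intervals were called in all Ppara-intact and in no Ppara-null livers, where 0.725% of all H3K27ac intervals were. They are named for that pattern, so it is given with no test. None of the 20 had the opposite split, where 0.632% of all intervals did, and 2 were called in both WT and neither Ppara KO liver (5.41%).

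The Cpt2 KO livers carried calls around Acot2 and Acot1 that no other genotype had. In 5 of the 20 intervals H3K27ac was called in both Cpt2 KO livers and nowhere else, against 1.83% of all intervals. The strongest, chr12:83981223-83982725, had folds of 21.9 and 18.1 and lies 5887 bases before Acot2, inside the body of the neighbouring gene Heatr4 (83945213 to 83984871). The others were chr12:83998023-83999147 (6.80 and 5.90) and chr12:83999302-83999858 (7.25 and 8.43) between Acot2 and Acot1, chr12:84007638-84008143 (6.75 and 4.60) 1612 bases before Acot1, and chr12:84020549-84021059 (6.67 and 7.17) past Acot1. A further interval past Acot1, chr12:84018837-84020472, gave 12.6 and 16.0 for the Cpt2 KO livers and 5.23 for Ppara KO replicate 1, with no call elsewhere. Counted without regard to the DKO, 7 intervals were called in both Cpt2 KO and neither WT liver (9.72% of all intervals), and 9 in both Cpt2 KO and neither DKO liver (4.11%).

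Past Acot1, chr12:84022741-84023812 was the 1 interval called in all 4 Cpt2-null livers and in no Cpt2-intact liver, a pattern of 1.95% of all H3K27ac intervals. Its folds were 7.94 and 9.50 in Cpt2 KO and 9.50 and 7.40 in DKO. Cpt2 KO and DKO overlapped, and none of the 20 was called in all 4 Cpt2-intact and no Cpt2-null livers (0.826% of all were). This interval and 11 others of the 20 have their midpoint in Gm40474, a long non-coding RNA gene annotated from 84018327 to 84053777. Of these 12, 2 lie over Acot4 and over the Acot3 start, and the others were assigned to a thioesterase gene by distance.

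Acot5 and Acot6 had almost no H3K27ac. The only interval in reach of Acot5, chr12:84060852-84061091, is closer to Acot3 and was called in Cpt2 KO replicate 2 alone, at 8.24. Acot6 had no H3K27ac interval within 10 kb. Acot5 and Acot6 thus give no H3K27ac comparison. In all, 6 of the 20 intervals were called in 1 library only, where 27.2% of all intervals were.

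H3K4me1 was spread more evenly over the genotypes. Of the 45 intervals, WT livers had 23 and 28, Cpt2 KO livers 28 and 37, Ppara KO livers 18 and 19 and DKO livers 19 and 20, so every Ppara-null liver had fewer calls than every Ppara-intact liver. Peaks covered 19.9 and 23.2 kb for WT livers, 25.2 and 34.6 kb for Cpt2 KO livers, 14.7 and 13.4 kb for Ppara KO livers and 13.9 and 15.1 kb for DKO livers. As for H3K27ac, the Cpt2 KO livers were the highest and the Ppara-null livers the lowest, with Ppara KO and DKO overlapping. Genome-wide H3K4me1 coverage ran from 38.8 to 53.5 Mb, lowest in DKO replicate 1, so the covered length in the cluster also reflects how much was called in each library.

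**Figure D3:**
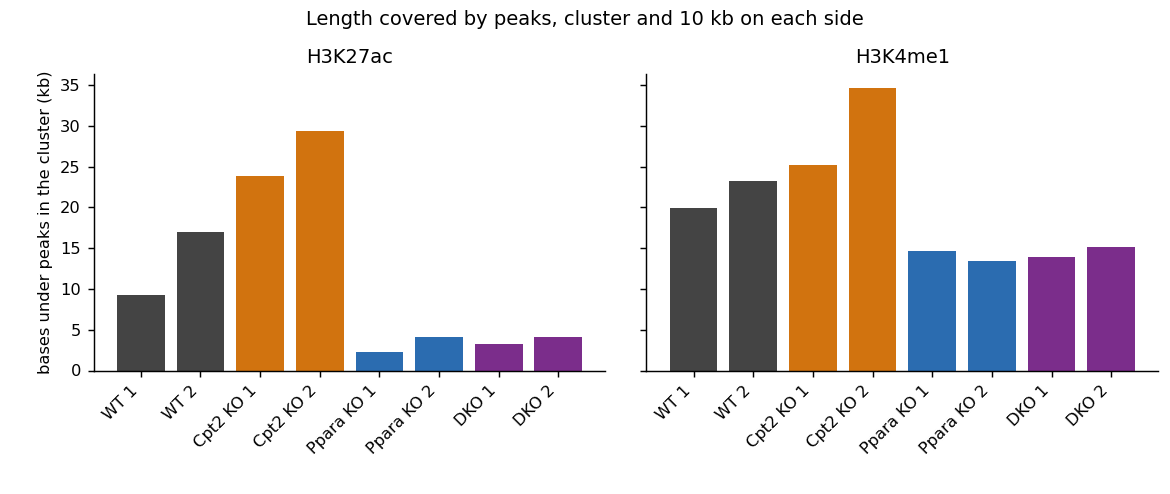
Length covered by H3K27ac peaks (left) and H3K4me1 peaks (right) in the cluster and 10 kb on each side, in kb (y axis), for each of the 8 livers (x axis). The Ppara KO and DKO bars, at most 4.1 kb for H3K27ac and 15.1 kb for H3K4me1, are below all WT and Cpt2 KO bars.

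Among these intervals 12 of 45 were called in all 8 libraries (19.0% of all H3K4me1 intervals were), and none of the 12 passed limma's adjusted threshold in any of the comparisons. For the Ppara-null comparison 0 of 12 passed (0.128% of all tested intervals passed in either direction), with 4 at an unadjusted p under 0.05, and 10 of the 12 differences were below 0, with a median of -0.23 beside -0.009 over all 19526. For Cpt2-null 0 of 12 passed (0.00% of all), with 2 at an unadjusted p under 0.05. DKO against WT also gave 0 (2 unadjusted, 0.133% of all intervals called). The other pairs and the interaction gave 0, with 0 to 3 unadjusted and 0.00% of all intervals called. All these percentages are at the adjusted threshold. The shares of all intervals at an unadjusted p under 0.05 or below 0 are not given, so those member counts have no background. The interval nearest the threshold for Ppara was chr12:84033015-84034258, before Acot4, where WT livers gave 9.83 and 11.2, Cpt2 KO livers 11.5 and 7.57, Ppara KO livers 6.0 and 5.0, and DKO livers 6.67 and 3.89. All Ppara-null livers were lower there than all Ppara-intact livers, and it lies in the H3K27ac interval before Acot4 that was called in Ppara-intact livers alone. Its difference was -0.91 (SE 0.23, adjusted p = 0.108), and it was named after its values were seen.

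The strongest H3K4me1 interval of each gene gave no called difference. For Acot2 it was chr12:83981043-83981789, which lies inside Heatr4 and where WT livers gave 5.56 and 7.34, Cpt2 KO livers 17.7 and 9.80, Ppara KO livers 5.40 and 5.86, and DKO livers 8.5 and 5.33. The Cpt2 KO livers were the highest there, at the same place as the strongest of the H3K27ac intervals called in Cpt2 KO alone, yet the Cpt2 KO against WT difference of 1.04 (SE 0.33) had an adjusted p of 0.571. For Acot1, chr12:84022415-84024564 gave 7.37 and 8.19 for WT livers, 11.6 and 12.1 for Cpt2 KO livers, 5.98 and 5.50 for Ppara KO livers, and 8.39 and 10.75 for DKO livers. It covers the H3K27ac interval called in the Cpt2-null livers, and every Cpt2-null liver was above every Cpt2-intact liver (difference 0.67, SE 0.19, adjusted p = 0.424). For Acot4 and Acot3 the strongest was chr12:84042493-84045569, at the end of Acot4, with folds from 6.83 in DKO replicate 1 to 13.5 in WT replicate 1. Over the Acot3 start, chr12:84049864-84053171 gave 11.0 and 12.6 for WT livers, 11.5 and 10.4 for Cpt2 KO livers, 9.26 and 9.22 for Ppara KO livers and 8.75 and 6.40 for DKO livers. The Ppara-null livers lay below the Ppara-intact livers there without passing the test (difference -0.45, SE 0.19, adjusted p = 0.307). For Acot5 it was chr12:84068305-84069646 over the gene start, from 4.14 in Ppara KO replicate 1 to 7.85 in Cpt2 KO replicate 1. The strongest in reach of Acot6, chr12:84114532-84114962, lies inside the neighbouring gene Dnal1 (84114279 to 84143517) and was called at 6.07 in Cpt2 KO replicate 2, 8.25 in Ppara KO replicate 2, and 7.35 and 6.57 in DKO.

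**Figure D4:**
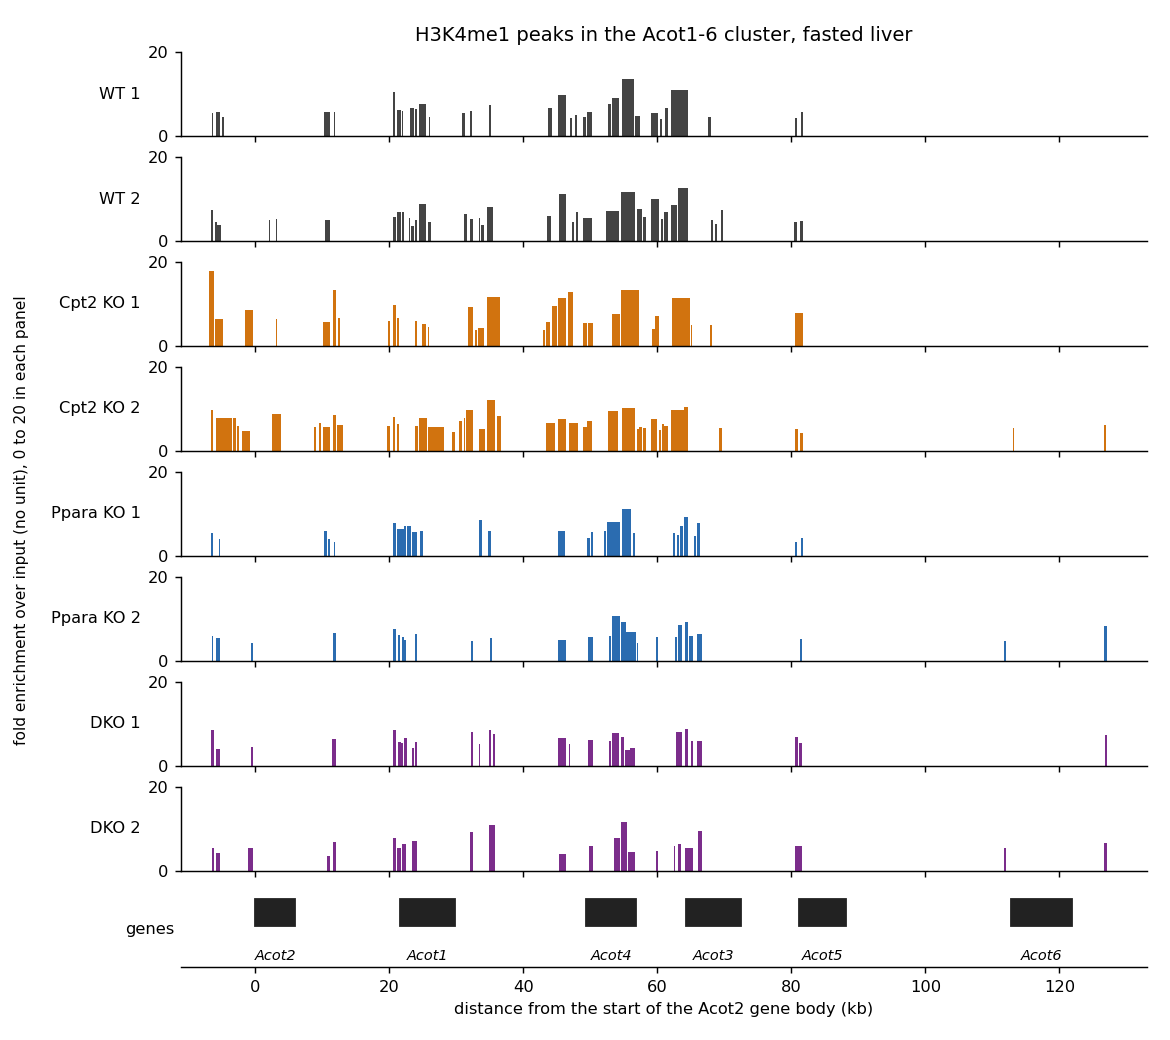
H3K4me1 peaks of the 8 libraries across the cluster, drawn as for H3K27ac: distance from the start of the Acot2 gene body in kb on the x axis and fold enrichment (no unit) on the y axis. All 8 libraries carry peaks around Acot1, Acot4 and Acot3, and 1 interval inside Acot3 is called in the 4 Ppara-null livers alone.

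Some H3K4me1 calls split by Ppara genotype. Inside Acot1, chr12:84013592-84016055 was called at 4.57 and 4.59 in WT and 4.51 and 5.63 in Cpt2 KO alone, all low folds. Before Acot4, chr12:84031200-84032945 was called at 6.80 and 5.89 in WT and 9.56 and 6.67 in Cpt2 KO alone. These were 2 of 45, against 0.604% of all H3K4me1 intervals. The opposite split occurred inside Acot3, where chr12:84053786-84054582 had calls from Ppara-null livers alone, 7.93 and 6.35 for Ppara KO livers, 5.82 and 9.44 for DKO livers (1 of 45, against 0.385%). It overlaps the end of the H3K27ac interval over Acot3 found in Ppara-intact livers alone, so the marks were called in opposite sets of livers there. Both Cpt2 KO livers alone had calls at chr12:84000124-84000911 (6.61 and 6.08) and chr12:84007539-84007997 (6.00 in each), 2 of 45 against 0.621%. No interval split completely by Cpt2 genotype (0.141% and 0.143% of all did, in either direction). Counted by pairs, 3 of 45 were called in both Cpt2 KO and neither WT liver (2.87%), 6 in both Cpt2 KO and neither DKO liver (2.87%), 6 in both WT and neither Ppara KO liver (4.89%), and 12 in 1 library only (28.5%). The 300-base promoter window of Acot2 held no H3K4me1 peak in any library, while the Acot1, Acot3 and Acot5 windows held one in all 8.

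H3K9ac was compared between 1 WT and 1 Cpt2 KO liver, so no test was possible, and its file gives positions without folds. Of the 22 intervals, 15 (68.2%) were called in Cpt2 KO only, 7 in both and 0 in WT only, where 23.9% of all H3K9ac intervals were called in Cpt2 KO only, 55.2% in both and 20.8% in WT only. The covered length was 6628 bases in WT and 19966 bases in Cpt2 KO, a ratio of 3.01, while 37.5 and 37.4 Mb were covered over the genome. By gene the ratio was 4.45 at Acot2, 3.11 at Acot1, 2.83 at Acot4, 5.02 at Acot3 and 1.20 at Acot6. No H3K9ac interval lay in reach of Acot5. Of the 2 intervals behind the Acot6 ratio, chr12:84114298-84114862 lies inside Dnal1 (526 bases covered in WT and 565 in Cpt2 KO). The Acot2 ratio includes chr12:83982902-83983145, which lies inside Heatr4 and was called in Cpt2 KO only. Over the Acot2 start, chr12:83986992-83990138 was covered for 1269 bases in WT and 3147 bases in Cpt2 KO, and over the Acot1 start, chr12:84009025-84012080 for 1700 and 3056 bases. Over the Acot3 start, chr12:84051919-84052338 was called in Cpt2 KO alone. The H3K9ac result points the same way as the H3K27ac extent in these genotypes, in a pair of libraries without replicates.

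**Figure D5:**
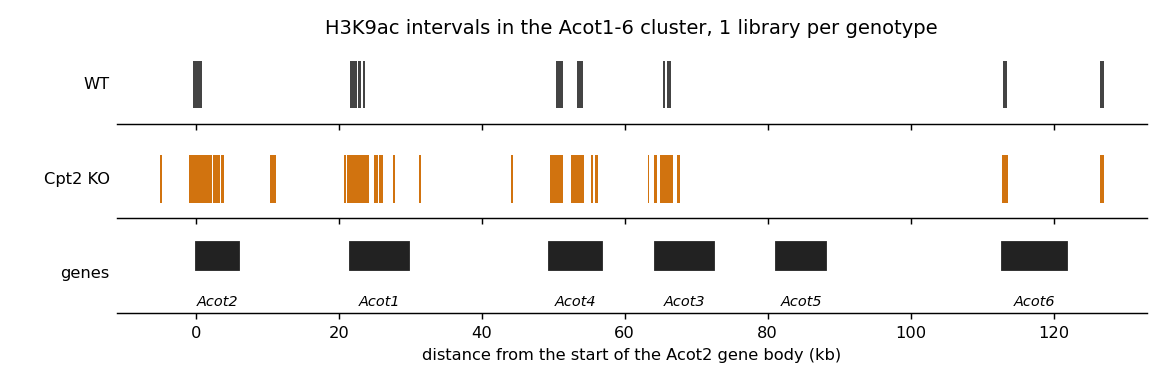
H3K9ac intervals of the WT and the Cpt2 KO library across the cluster, with distance from the start of the Acot2 gene body in kb on the x axis and gene bodies as black boxes; boxes are called intervals and carry no level. Intervals around Acot2, Acot1, Acot4 and Acot3 are longer and more numerous in Cpt2 KO (19966 bases in all, against 6628 in WT), and those near Acot6 are alike.

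Other genes of acyl-CoA metabolism were read the same way, each by its strongest H3K27ac interval called in all 8 libraries. Of 10 other acyl-CoA thioesterase genes, 8 had such an interval, and 0 of 8 differed by Ppara genotype (median difference -0.10, beside -0.01 over all intervals). Acot9 was higher in Cpt2-null livers by 0.57 (adjusted p = 0.0452). Of 12 acyl-CoA synthetase genes, the enzymes that make acyl-CoA, 11 had one, and 2 were lower in Ppara-null livers: Acsl1 by a difference of -0.53 (adjusted p = 0.0407) and Slc27a2 by -0.83 (adjusted p = 0.00691). For Cpt2, Slc27a4 was higher by 1.01 and Acss2 lower by a difference of -0.75. Of 22 known Ppara target genes, 19 had one and 4 were lower in Ppara-null livers, namely Cyp4a10, a fatty acid omega-hydroxylase (-1.67), Hsd17b4, a peroxisomal oxidation enzyme (-1.52), Acadvl, a very-long-chain acyl-CoA dehydrogenase (-0.96), and Acaa1a, a peroxisomal thiolase (-0.80). The median of the 19 was -0.16, and Hadha and Hadhb share their interval. Cyp4a14, Cyp4a31 and Vnn1 had no interval to read, so the count and median leave them out.

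Among the genes flanking the cluster, Numb, Riox1 and Mideas had H3K27ac intervals of their own and none passed for Ppara (differences of -0.49, -0.47 and 0.07, adjusted p = 0.0921, 0.159 and 0.838). The interval read for the fourth, Heatr4, is the Acot2 start interval itself. Over the 8 libraries, the H3K27ac patterns most like that of the Acot2 start were at intervals whose nearest genes were Fam120a, Akain1 and Slc44a1. Their Pearson r was 0.978, 0.974 and 0.972 among 18281 intervals, and their midpoints lay 1194, 20684 and 496 bases outside those genes. The patterns most like that of Acot4 were at intervals inside Ddx58, Papss2 and Dna2 (0.982, 0.977 and 0.974). The 8 points share libraries, and the top of so many intervals is high by selection.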

How the data were processed

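Peak lists and consensus intervals of H3K27ac, H3K4me1 and H3K9ac were used as deposited. The authors aligned reads with BWA and called narrow peaks per library with MACS2 2.1.0 on mm10, per the submitters' processing notes and the peak names; the names of 1 H3K27ac list (Ppara KO replicate 2) carry another word in place of mm10. The deposited lists give, per peak, a fold enrichment (ratio), −log10 p and q values and a MACS2 score, which follows the −log10 p. Folds are normalized to background by the authors; pooled inputs were not analysed here. Every list was limited to −log10 p values of about 7 or more (smallest 7.02 to 7.03). H3K9ac positions came from the deposited consensus file, and 0 columns of per-sample values were left unused. RefSeq positions and promoters are of GRCm38.p6, and the gene table gives no exons.

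A peak counted for an interval from 1 shared base. Log2 folds were centred on each library's median over intervals called in all 8 libraries and compared by limma (version 3.58.1, R 4.3.3, lmFit and eBayes with trend), 4 genotype means in 1 fit, with Benjamini-Hochberg adjustment over all intervals and a threshold of 0.05. The fit was also run on simulated folds with independent noise and no uncalled libraries. That run does not bear on filled values or on shifts shared by several livers. Genotypes came from sample titles. Replicate numbers are not known to pair livers, and correlations of replicate deviations between genotypes, from -0.489 to 0.172, cannot settle it. Intervals named are each gene's strongest per mark, those past the threshold, those split completely by a genotype and some named for their calls. Alternatives were scaling, pseudocount, filling of uncalled libraries, a minimum −log10 q of 10, an overlap of 50%, the mean of peaks, peak width, a replicate block, gene bodies alone and leaving out each library. Tables used Python 3.11.15. Members and lists were chosen with earlier results of these data known, so no list is independent support.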

Additional observations from a re-analysis of the deposited data

Results flagged for a closer look

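With uncalled libraries filled, the interaction was below 0 and past the adjusted threshold in 9 intervals. None of these intervals was called in all 8 libraries, and constant fills make these p-values too small. Of the 9, 7 were called in the Cpt2 KO livers alone. Those 7 entered the fit through their Cpt2 KO calls, and every other library held its lowest called fold. A negative interaction there follows from the calls and the fill, so this fit cannot test it. At 84018837 and 84034465 most values were fills as well. For H3K27ac the interaction (log2) was -3.10 at the interval starting at 83981223 and -1.44 and -1.75 at those starting at 83998023 and 83999302 near Acot2. Near Acot1 it was -1.26 at 84007638, -3.13 at 84018837 and -1.57 at 84020549, and before Acot4 it was -2.06 at 84034465, where the folds were 4.0 in WT replicate 2 and 11.4 and 12.2 in Cpt2 KO. For H3K4me1 it was -1.44 at 84000124 (Acot2) and -1.36 at 84007539 (Acot1). Adjusted p-values of the filled limma fit, 0.0145 at 83981223 and 0.0206 at 84007638, are for that reason no evidence of an interaction. Without Ppara KO replicate 2, 0 of all 43051 filled H3K27ac intervals passed for the interaction, so all 7 of these H3K27ac calls were lost (adjusted p = 0.0514 at 83981223). The call at 84007638 passed in only 2 of the 8 fits that leave out a library, with an adjusted p of 0.0784 without WT replicate 2. Of the H3K4me1 calls, that at 84000124 passed in 2 and that at 84007539 in 3 of 8 such fits, with an adjusted p of 0.248 for both without WT replicate 2, and without Ppara KO replicate 1 none of the 57924 filled H3K4me1 intervals passed. Over all filled H3K27ac intervals, 5.43% had a lower and 8.41% a higher interaction.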

How the results depend on the processing

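Counts are of Acot1-6 intervals past the adjusted threshold. In the 2 intervals tested for H3K27ac and the 12 for H3K4me1, alternatives other than those given here kept each count. The H3K27ac width covariate split completely by Cpt2 genotype. Where Cpt2-null and Cpt2-intact livers are compared, a count lost with it cannot tell width from genotype. For Ppara-null (2 in the reported fit) the mean fold of peaks and the peak width covariate each gave 1, and leaving out each library in turn gave 1 to 2. For Cpt2-null (1) the width covariate gave 0 and leaving out a library 0 to 1. Cpt2 KO against WT (0, with 1 at an unadjusted p under 0.05) gave 1 without centring, with quantile normalization, with log2(fold + 1) and with a minimum −log10 q of 10. DKO against WT (1) gave 0 without centring, with the mean fold and with the width covariate, and 0 to 1 on leaving out a library. DKO against Cpt2 KO (1) gave 0 with the mean fold and 0 to 1 on leaving out a library. In H3K4me1, DKO against WT (0) gave 0 to 1 on leaving out a library, the 1 arising without either Cpt2 KO liver.

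Filling uncalled libraries raised the intervals tested to 13 for H3K27ac and 30 for H3K4me1, and the counts with them. In H3K27ac Ppara-null gave 12 (all lower, as were 14.4% of all filled intervals), Cpt2-null 5 (all higher, 12.2% of all), Cpt2 KO against WT 9 (higher, 13.1%) and Ppara KO against WT 4 (lower, 9.43%). The DKO livers differed from WT in 5 (37.6% of all in either direction), from Cpt2 KO in 12 (lower, 7.01%) and from Ppara KO in 1 (higher, 4.99%), and the interaction gave 7 (lower, 5.43%). In H3K4me1 Ppara-null gave 9 (13.7% of all in either direction), Cpt2-null 4 (higher, 3.89%), Cpt2 KO against WT 2 (higher, 1.54%), DKO against WT 1 (lower, 7.21%), DKO against Cpt2 KO 2 (lower, 1.65%) and the interaction 2 (lower, 1.37%). An interval enters that fit only if some genotype is called, so these counts are no support.

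The replicate block gave 1 interval for Cpt2 KO against WT (the Acot2 start, adjusted p = 0.0453) and changed no other call. The numbers are not known to pair livers. Without centring, the median over all H3K27ac intervals was 0.25 higher in Cpt2-null livers, and their calls over all intervals went from 896 higher and 1349 lower to 3504 and 432.

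Signs turned at values near 0. At the Acot2 start, DKO against WT ran from -0.11 to 0.14 on leaving out a library, and the interaction from -0.12 to 0.15, with -0.0505 under quantile normalization, -0.0043 with log2(fold + 1) and -0.0224 with the width covariate. At Acot4 the H3K27ac Cpt2-null difference was 0.13 without centring, 0.0691 with the width covariate and -0.30 to 0.0174 on leaving out a library, and Cpt2 KO against WT was -0.0868 with the mean fold and -0.10 to 0.29 on leaving out a library. In H3K4me1 the Cpt2-null difference at 84042493 ran from -0.32 to 0.0343 and the Ppara-null difference at 84068305 from -0.25 to 0.0413. Restricting members to midpoints in gene bodies left 5 H3K27ac and 16 H3K4me1 intervals, the Acot2 and Acot4 ones tested among them. The cause of these changes was not tested. Depth in reads is unknown, 2 livers a genotype limit the precision, and a no call may hide signal under the calling limit.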
